A study of Mus musculus with 12 samples.

Results

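The genes described here belong to the muscle regulatory program and to the response to loss of the nerve, and they were followed through the gastrocnemius and quadriceps of ground and flight mice. They were the myogenic factors Myod1, Myog and Myf6, the acetylcholine receptor subunits Chrna1, Chrnd and Chrng, and Runx1, Ncam1, Gadd45a and Cdkn1a. These genes were chosen by name, and all 10 were found among the 36008 genes of the deposited TPM table. TPM is a transcript abundance scaled per transcript length and per library. Of the 10, 6 exceeded 5 TPM in at least 1 of the 12 libraries and entered the test across genes. The other 4, Chrna1, Chrnd, Chrng and Runx1, stayed below that level everywhere and are described by their values.

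The 12 libraries came from 6 female mice, with a gastrocnemius and a quadriceps library from each, in 4 groups of 3. Mice M02, M03 and M08 stayed on the ground and mice M11, M12 and M20 were kept on the International Space Station, both for 9 weeks, from an age of 30 weeks and in identical hardware. The sample labels give the strain as C57BL/6 and the study's methods give BALB/c. All 6 animals were of the vehicle arm of a drug study and received repeated subcutaneous phosphate-buffered saline, and the muscles were dissected from the left hind limb of frozen carcasses. Flight animals were killed in orbit and ground animals at the launch site, so that flight, handling and storage cannot be told apart. RNA was extracted from minced tissue of each muscle, and the study's methods do not say which part of the muscle was taken. In such bulk samples fewer cells of a type and less RNA per cell cannot be told apart.

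Markers of muscle fibers dominated every library, with a summed level of 68017 to 90418 TPM over 8 genes. Markers of satellite cells (the stem cells of muscle) were also present, at 15.3 to 19.2 TPM over 6 genes, and no marker of the 8 cell types examined was at 0 throughout. The quadriceps library of ground mouse M08 listed 18172 genes above 0, against 20291 to 21265 in the others. TPM carries no counting depth, so only the scatter among the 3 mice of a group shows how precise a value is.

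In innervated adult fibers, electrical activity keeps the acetylcholine receptor genes silent outside the few nuclei under the nerve ending. When the nerve is cut, myogenin and MyoD increase and act through E-boxes (the motif CANNTG) in front of the receptor subunit genes, and the fetal gamma subunit (Chrng) returns beside the adult epsilon subunit (Chrne). Runx1, Ncam1, Gadd45a and Cdkn1a are further genes known to be induced in denervated muscle. Disuse without nerve injury also leads to atrophy, and the levels of these genes in unloaded muscle bear on how far the nerve-dependent part of the program is engaged.

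The 180 bases before the RefSeq transcription start are shown for the alpha, gamma and epsilon subunit genes and for Myog, since these genes carry the motif through which the myogenic factors are known to act. Sequences are from RefSeq on GRCm38.p6, 5′ to 3′ on the strand of the gene, and capitals mark every E-box (CANNTG, which reads the same on both strands as a motif). They lie at chr2:73580339-73580518 (minus strand) for Chrna1, chr1:87205631-87205810 (plus strand) for Chrng, chr11:70619195-70619374 (minus strand) for Chrne and chr1:134289824-134290003 (plus strand) for Myog.
Chrna1: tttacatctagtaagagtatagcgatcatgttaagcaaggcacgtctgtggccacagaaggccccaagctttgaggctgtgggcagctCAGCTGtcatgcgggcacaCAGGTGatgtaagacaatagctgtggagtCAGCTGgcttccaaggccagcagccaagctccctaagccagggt
Chrng: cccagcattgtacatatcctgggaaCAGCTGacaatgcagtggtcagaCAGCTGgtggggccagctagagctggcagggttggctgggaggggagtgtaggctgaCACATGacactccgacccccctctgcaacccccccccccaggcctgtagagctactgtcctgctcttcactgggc
Chrne: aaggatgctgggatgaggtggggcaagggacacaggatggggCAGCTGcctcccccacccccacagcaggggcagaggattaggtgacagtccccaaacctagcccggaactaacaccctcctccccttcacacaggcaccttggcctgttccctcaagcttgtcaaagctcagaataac
Myog: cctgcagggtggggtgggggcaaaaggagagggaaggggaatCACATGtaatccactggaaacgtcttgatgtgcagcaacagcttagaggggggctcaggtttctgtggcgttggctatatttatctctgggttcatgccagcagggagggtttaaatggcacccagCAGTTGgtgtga

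Chrna1 and Chrng each carried 3 E-boxes, of which 2 had the core CAGCTG. Chrne carried 1, also CAGCTG, and the 2 E-boxes of Myog had other cores. Among all 32851 promoter windows of the table (250 bases before to 50 after a start), 17.6% held at least 3 E-boxes and 1.90% held at least 2 copies of CAGCTG, whereas 72.3% held at least 1 E-box and 16.3% at least 1 CAGCTG. In the same windows, Chrnb1 and Musk held 3 E-boxes each, Gadd45a held 1, and Runx1 and Cdkn1a held 3 and 0, and 1 and 2, at their alternative starts. Of the 10 genes, 6 were matched in the promoter table and Myod1, Myf6, Chrnd and Ncam1 were not. In the GENCODE vM21 annotation the whole Chrng stretch lay inside the gene, almost entirely in an intron, because that annotation has a further upstream start, and 22 bases of the Chrne stretch and 15 of the Myog stretch lay in the first exon. A match of letters is a description of the sequence and not a measured binding site.

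None of the 10 genes passed the test between flight and ground in either muscle. Genes were called by limma on log2(TPM + 1), where the Benjamini-Hochberg adjusted p was under 0.05 and the difference exceeded 1.5-fold, and 0.229% of all 10481 genes tested were called in the gastrocnemius and 0.0286% in the quadriceps. The first share stood for 24 genes, which became 133 without flight mouse M11 and 1 to 8 when any other mouse was left out, and under none of these fits was any of the 10 genes called. Log2 differences are on the log2(TPM + 1) scale throughout, which understates changes of low genes. At an unadjusted p under 0.05, 1 of the 6 tested genes (Myf6, lower) stood in the gastrocnemius and 2 of 6 (Myog and Gadd45a, higher) in the quadriceps, against 15.1% and 10.8% of all genes tested. The libraries of the groups did not overlap for 2 of the 6 in each muscle, against 21.0% of all genes tested in the gastrocnemius and 17.4% in the quadriceps. The median log2 difference of the 6 was 0.20 in the gastrocnemius and 0.22 in the quadriceps, beside 0.02 and 0.01 over all genes tested. The genes were chosen with earlier results of these data known, so the medians were not tested and no shift is read from them.

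**Figure D1:**
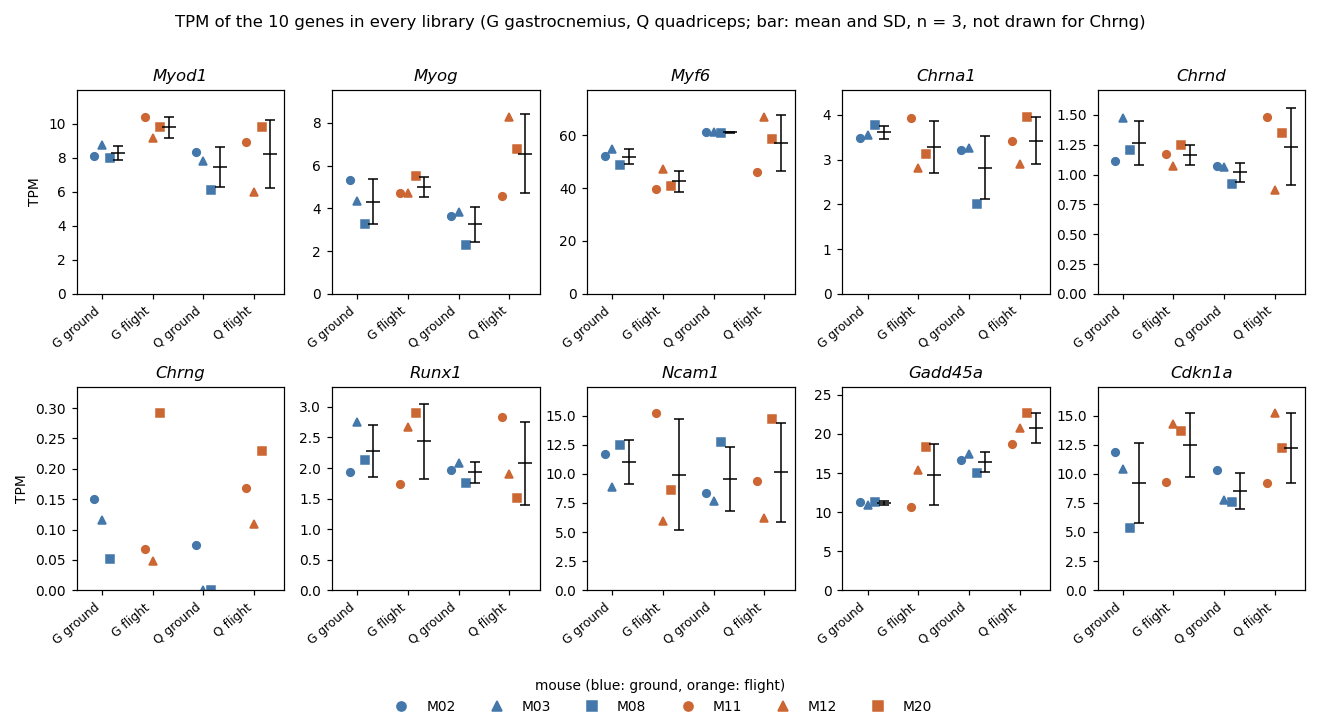
Level in TPM (linear axis from 0) of each of the 10 genes in every library, by muscle and condition, with 1 symbol for each mouse and the mean and SD of 3 mice beside them, which are not drawn for Chrng. The flight gastrocnemius values of Myod1 lie above all ground values, those of Myf6 lie below, and Myog and Gadd45a lie above the ground values in the flight quadriceps.

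Myod1 (chr7:46376474-46379099, plus strand) encodes MyoD, the factor that commits cells to the muscle lineage. In the gastrocnemius it read 8.11, 8.74 and 7.97 TPM in ground mice M02, M03 and M08 and 10.4, 9.15 and 9.81 TPM in flight mice M11, M12 and M20. Every flight library was thus above every ground library, by a narrow margin. The log2 difference was 0.22 ± 0.10 (SE, n = 3 and 3; 95% interval -0.01 to 0.45), with an adjusted p of 0.352 by limma and an exact permutation p of 0.1, the smallest that 3 against 3 allows. In the quadriceps the values were 8.36, 7.84 and 6.13 TPM on the ground and 8.93, 5.99 and 9.82 TPM after flight. There the groups overlapped, with the highest and the lowest value both in flight mice, and the log2 difference was 0.12 ± 0.20 (adjusted p = 0.861 by limma).

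Myog (chr1:134289989-134292548, plus strand) encodes myogenin, the factor of terminal differentiation and the main transcriptional mediator of the denervation response. Its quadriceps level was 3.64, 3.82 and 2.31 TPM in the ground mice and 4.59, 8.28 and 6.80 TPM in the flight mice. All 3 flight libraries were higher, and the group mean was 3.26 ± 0.82 TPM on the ground and 6.56 ± 1.86 TPM after flight (SD, n = 3). This was the widest flight difference among the 6 tested genes, at 0.82 ± 0.24 on the log2 scale or 1.76-fold (95% interval of the log2 difference 0.24 to 1.40). It did not pass the adjustment over all genes (unadjusted p = 0.0123, adjusted p = 0.360 by limma), and the adjusted p ranged from 0.164 to 0.627 over 12 other ways of fitting. Summed markers of satellite cells and of adipocytes also did not overlap between the conditions in these quadriceps libraries, as for 17.4% of all single genes tested. Satellite cell markers summed to 16.80 to 17.37 TPM on the ground and 17.45 to 19.18 TPM after flight. That gap was narrow, and each of the 6 satellite cell genes overlapped singly. Adipocyte markers (6 genes) summed to 313 to 574 TPM on the ground and 202 to 278 TPM after flight. The part of these cells in the quadriceps values of Myog and of Gadd45a was not tested. In the gastrocnemius Myog read 5.34, 4.33 and 3.25 TPM on the ground and 4.72, 4.73 and 5.54 TPM after flight. The flight values there fell mostly within the ground range, and the log2 difference was 0.19 ± 0.17 (adjusted p = 0.627 by limma).

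Because Myog stood apart in the quadriceps and not in the gastrocnemius, the difference between the flight effects was tested directly, as an interaction in a fit of all 12 libraries with mouse as a block. It was -0.63 ± 0.25 on the log2 scale (gastrocnemius minus quadriceps, 95% interval -1.19 to -0.06), with an unadjusted p of 0.0347 and an adjusted p of 0.957 by limma. Within each mouse, Myog was higher in the gastrocnemius in all 3 ground mice and in flight mouse M11, at log2 differences of 0.03 to 0.45. Flight mice M12 and M20 had the reverse order, at -0.70 and -0.26. Across all genes tested 0% were called for this interaction by limma, and at an unadjusted p under 0.05 there were 261 positive and 273 negative differences.

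Myf6 (chr10:107492853-107494737, minus strand) encodes MRF4, the myogenic factor of mature fibers, and was the most abundant of the 10. Gastrocnemius levels were 52.3, 54.7 and 48.8 TPM on the ground and 39.7, 47.1 and 40.9 TPM after flight. No flight library reached the lowest ground library. The log2 difference was -0.28 ± 0.09 (0.822-fold; unadjusted p = 0.0183, adjusted p = 0.247 by limma, exact permutation p = 0.1). In the quadriceps the ground values were nearly alike, at 61.3, 61.1 and 60.8 TPM, and the flight values were spread on both sides of them, at 45.9, 66.9 and 58.6 TPM. The log2 difference there was -0.11 ± 0.13 (adjusted p = 0.795 by limma), and the interaction for Myf6 was -0.17 ± 0.12 (adjusted p = 0.968 by limma).

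The order of group means differed among the myogenic factors. Myod1 was highest in the flight gastrocnemius (9.79 TPM) and lowest in the ground quadriceps (7.44 TPM), and of neighbours in that order only flight and ground gastrocnemius had ranges that did not overlap. Myog was highest in the flight quadriceps and lowest in the ground quadriceps, with overlapping ranges between all neighbours. Myf6 ran from the ground quadriceps (61.1 TPM) through the flight quadriceps (57.2 TPM) and ground gastrocnemius (51.9 TPM) to the flight gastrocnemius (42.6 TPM), and the last step was the only one without overlap.

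The receptor subunit genes Chrna1, Chrnd and Chrng, of which only Chrng is specific to the fetal receptor, were low in every group. Chrna1 (chr2:73563215-73580338, minus strand), which encodes the acetylcholine-binding alpha subunit, read 3.48, 3.56 and 3.78 TPM in the ground gastrocnemius and 3.93, 2.81 and 3.12 TPM in the flight gastrocnemius. Its quadriceps values were 3.21, 3.25 and 2.01 TPM on the ground and 3.43, 2.90 and 3.96 TPM after flight. The groups overlapped in both muscles, and log2 differences between flight and ground were -0.11 in the gastrocnemius and 0.22 in the quadriceps (exact permutation p = 0.4 in each).

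Chrnd (chr1:87190607-87200070, plus strand), which encodes the delta subunit shared by the fetal and adult receptor, read 1.12, 1.47 and 1.21 TPM in the ground and 1.17, 1.07 and 1.24 TPM in the flight gastrocnemius. In the quadriceps it read 1.07, 1.06 and 0.923 TPM on the ground and 1.48, 0.867 and 1.35 TPM after flight. Its log2 differences were -0.06 and 0.14, with overlapping groups (exact permutation p = 0.5 in the gastrocnemius and 0.4 in the quadriceps). Neighbouring group means of Chrna1 and Chrnd overlapped in range, except that Chrnd in the flight gastrocnemius lay just above the ground quadriceps.

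Chrng (chr1:87204657-87212694, plus strand) encodes the fetal gamma subunit and was close to 0 throughout. Gastrocnemius libraries read 0.150, 0.116 and 0.0506 TPM on the ground and 0.0675, 0.0482 and 0.292 TPM after flight. In the quadriceps it was listed at 0.0749 TPM in ground mouse M02 and at 0 in M03 and M08, and at 0.169, 0.110 and 0.230 TPM in flight mice M11, M12 and M20. All 3 flight quadriceps values were above the ground values (exact permutation p = 0.1), and the log2 difference was 0.19 (1.14 with a pseudocount of 0.1 TPM in place of 1), at levels where a table without counts cannot give the number of reads behind a value. Without the filter on low values, the adjusted p of Chrng in the quadriceps was 0.629 by limma.

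The other receptor subunits, Chrne and Chrnb1, set the scale for these levels. Chrne, which replaces the gamma subunit after birth, read 8.89 to 14.7 TPM over the 12 libraries, and Chrnb1, the beta subunit, read 12.9 to 21.6 TPM. As a share of gamma plus epsilon transcripts, both in TPM and so per length, Chrng made up between 0% and 2.21% of each library, the highest share being in the gastrocnemius of flight mouse M20. Chrne had log2 differences of 0.24 ± 0.14 in the gastrocnemius and 0.31 ± 0.14 in the quadriceps (adjusted p = 0.457 and 0.497 by limma). Those of Chrnb1 were -0.01 ± 0.11 and 0.29 ± 0.15 (adjusted p = 0.972 and 0.538 by limma), the first of which turned to 0.01 to 0.06 when ground mouse M02, ground mouse M03 or flight mouse M20 was left out.

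**Figure D2:**
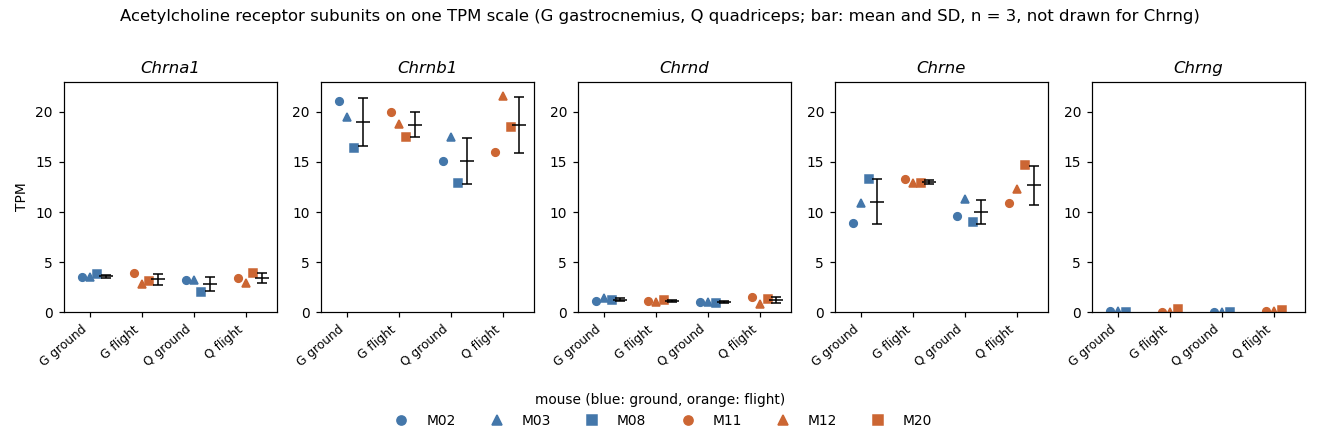
Level in TPM of 5 acetylcholine receptor subunits on the same linear axis, in every library by muscle and condition, with the mean and SD of 3 mice, which are not drawn for Chrng. Chrng lies on the axis, Chrna1 and Chrnd lie below 5 TPM, and Chrnb1 and Chrne lie above it in every library of both conditions.

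Runx1 (chr16:92601466-92826149, minus strand), a transcription factor that limits wasting of denervated fibers, read 1.94, 2.75 and 2.13 TPM in the ground and 1.74, 2.67 and 2.90 TPM in the flight gastrocnemius. In the quadriceps it read 1.96, 2.09 and 1.75 TPM on the ground and 2.83, 1.90 and 1.51 TPM after flight. In both muscles a flight mouse gave the lowest and a flight mouse the highest value. Log2 differences were 0.06 and 0.05 (exact permutation p = 0.9 in each), and the ranges of all neighbouring groups overlapped.

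Ncam1 (chr9:49502136-49798925, minus strand) encodes the neural cell adhesion molecule, which spreads along denervated fibers and is also made by satellite cells and by Schwann cells. It read 11.7, 8.85 and 12.5 TPM in the ground and 15.2, 5.92 and 8.64 TPM in the flight gastrocnemius, and 8.35, 7.63 and 12.7 TPM in the ground and 9.42, 6.24 and 14.7 TPM in the flight quadriceps. Flight mice gave both the highest and the lowest value in each muscle, and the 4 group means lay close together, from 9.56 to 11.02 TPM with all neighbours overlapping. The log2 differences, -0.21 ± 0.29 and 0.03 ± 0.31 (adjusted p = 0.762 and 0.974 by limma), took the other sign when a mouse was left out in either muscle. Schwann cell markers, summed over 8 genes, were at 152 to 330 TPM in the gastrocnemius libraries and at 59.9 to 95.2 TPM in those of the quadriceps, and satellite cell markers at 15.3 to 17.9 TPM and 16.8 to 19.2 TPM. Their part in the level of Ncam1 was not tested.

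Gadd45a (chr6:67035096-67037457, minus strand), a growth arrest gene whose forced expression is known to cause fiber atrophy, was higher in each flight quadriceps library than in any ground library. The ground quadriceps read 16.7, 17.5 and 15.1 TPM and the flight quadriceps 18.8, 20.8 and 22.7 TPM. The log2 difference was 0.32 ± 0.11 (1.25-fold, 95% interval 0.06 to 0.58), with an unadjusted p of 0.0225 and an adjusted p of 0.397 by limma. In the gastrocnemius the 3 ground mice were nearly alike, at 11.3, 10.9 and 11.2 TPM. Flight mouse M11 lay just below them at 10.6 TPM, and M12 and M20 lay above at 15.4 and 18.4 TPM. The log2 difference there was 0.35 ± 0.18 (adjusted p = 0.390 by limma), and it was 0.56 ± 0.11 without M11 (adjusted p = 0.0631 by limma, in a range of 0.0631 to 0.729 over the 12 alternatives) and 0.19 without M20. Group means ran from the flight quadriceps (20.7 TPM) through the ground quadriceps (16.4 TPM) and flight gastrocnemius (14.8 TPM) to the ground gastrocnemius (11.1 TPM), and only the first step was without overlap.

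Cdkn1a (chr17:29090976-29100727, plus strand) encodes p21, an inhibitor of cyclin-dependent kinases that is transcribed under p53 and in differentiating myoblasts. It read 11.9, 10.4 and 5.31 TPM in the ground and 9.30, 14.3 and 13.7 TPM in the flight gastrocnemius, and 10.3, 7.73 and 7.55 TPM in the ground and 9.19, 15.2 and 12.2 TPM in the flight quadriceps. In both muscles M12 and M20 were above all ground mice and M11 was within the ground range. The log2 differences were 0.44 ± 0.28 and 0.46 ± 0.20 (1.36-fold and 1.37-fold), with adjusted p-values of 0.483 and 0.478 by limma. Leaving out a mouse at a time gave 0.13 (without M08) to 0.64 (without M02) in the gastrocnemius and 0.29 (without M12) to 0.63 (without M11) in the quadriceps. Both 95% intervals, -0.20 to 1.09 and -0.02 to 0.93, included 0 and also included a doubling of expression or came near it. Neighbours in the order of group means overlapped, from the flight gastrocnemius (12.4 TPM) to the ground quadriceps (8.53 TPM).

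**Figure D3:**
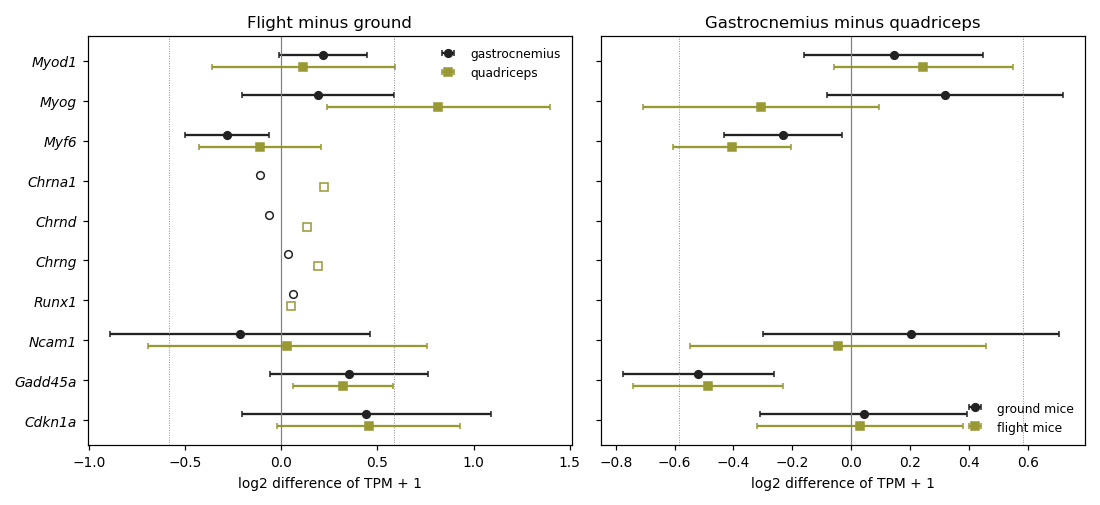
Log2 differences of TPM + 1 between flight and ground in each muscle (left) and between the muscles in ground and in flight mice (right), with 95% intervals from limma as bars. Open symbols are genes below the filter on low values, without an interval, dotted lines mark 1.5-fold, and the intervals of Myog and Gadd45a in the quadriceps and of Myf6 in the gastrocnemius leave out 0 before adjustment.

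The behaviour of individual mice was compared across muscles after these values had been seen. Over the 6 mice, the gastrocnemius and quadriceps levels of Cdkn1a were related with Pearson's r of 0.80 (exact permutation p = 0.0472) and Spearman's rho of 0.94 (exact permutation p = 0.0167), and r was again 0.80 without the 2 mice farthest from the median. Adjusted over the 10 genes by the Benjamini-Hochberg method, the p for r was 0.236. For Gadd45a, r was 0.83 (exact permutation p = 0.0389, adjusted p = 0.236) but turned to -0.86 without the 2 farthest mice, so that it rested on them. The remaining 8 genes had r of -0.66 to 0.67, with exact permutation p-values of 0.133 or more. Ground and flight mice enter these values together, and 3 mice of a condition were too few for a value within each.

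**Figure D4:**
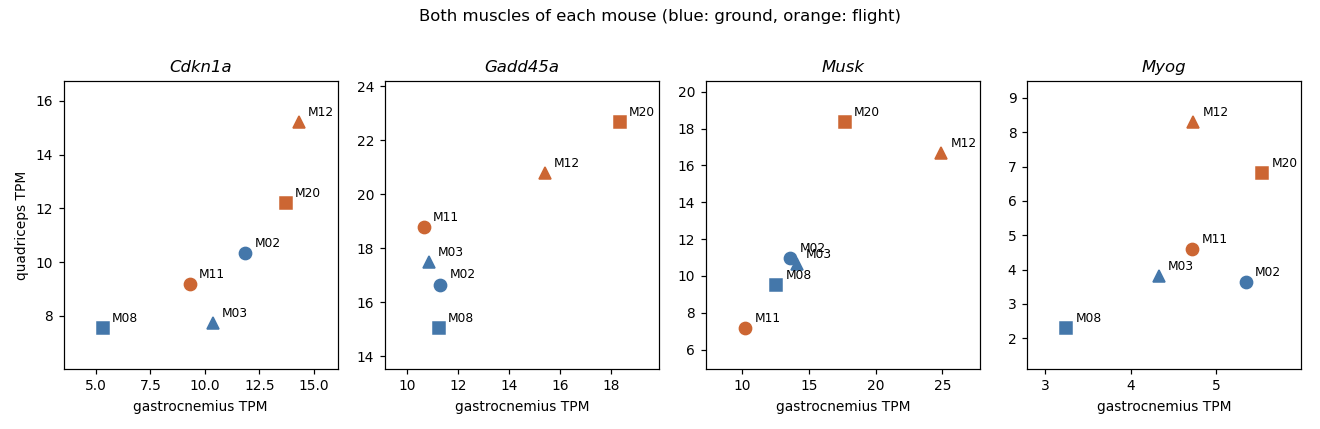
Gastrocnemius level against quadriceps level, both in TPM on linear axes that do not start at 0, of Cdkn1a, Gadd45a, Musk and Myog, with 1 point for each mouse. Flight mice M12 and M20 lie toward the upper right for Cdkn1a, Gadd45a and Musk, whereas flight mouse M11 lies among or below the ground mice in the gastrocnemius.

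Among the tested genes, an adjusted p under 0.05 by limma occurred between the muscles and not between the conditions. The muscles were compared within mice, with the libraries of both muscles in the fit, and the conditions between mice in each muscle. Adjusted p-values of these comparisons therefore cannot be set side by side. The widest log2 difference was that of Myog for flight in the quadriceps, at 0.82. Gadd45a was lower in the gastrocnemius than in the quadriceps of every mouse, by 0.39 to 0.64 on the log2 scale in the ground mice and by 0.29 to 0.76 in the flight mice. In a fit with mouse as a block, the difference was -0.52 ± 0.11 on the ground and -0.49 ± 0.11 after flight (0.698-fold and 0.713-fold; adjusted p = 0.0272 and 0.0273 by limma). Neither reached 1.5-fold, so Gadd45a was not called. Myf6 was also lower in the gastrocnemius of every mouse, at -0.23 ± 0.09 on the ground (adjusted p = 0.118 by limma) and -0.40 ± 0.09 after flight (0.756-fold, adjusted p = 0.0232 by limma).

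These differences have to be read against all genes. The median log2 difference between the muscles over all genes tested was -0.12 on the ground and -0.11 after flight, and it was 0.01 and 0.02 once libraries were rescaled by the median of ratios. On the rescaled values Gadd45a stood at -0.39 and -0.35 (adjusted p = 0.0995 and 0.122 by limma) and Myf6 at -0.09 and -0.27 (adjusted p = 0.489 and 0.0890 by limma). Over the 11 alternatives the adjusted p of Gadd45a ranged from 0.0303 to 0.119 on the ground and from 0.0325 to 0.125 after flight, and that of Myf6 after flight from 0.0225 to 0.134. The side of 0.05 therefore depended on the fit, whereas the direction did not.

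Of all genes tested, 11.9% on the ground and 13.4% after flight had an adjusted p under 0.05 between the muscles, against 1 and 2 of the 6. With the fold threshold, 3.20% and 3.34% were called, and none of the 6. Of the called genes, 102 of 335 on the ground and 105 of 350 after flight were higher in the gastrocnemius, against 155 of 230 and 158 of 248 on the rescaled values. The remaining genes, Myod1, Myog, Ncam1 and Cdkn1a, had log2 differences between the muscles of 0.04 to 0.32 on the ground and -0.31 to 0.25 after flight, with adjusted p-values from 0.254 to 0.922 by limma. Among the genes below the filter, Chrna1, Chrnd and Chrng each had their higher level in the gastrocnemius in all 3 ground mice, and none of them was so in all 3 flight mice. Runx1 was so in neither condition, at log2 differences of -0.01 in ground mouse M02 and -0.48 in flight mouse M11. Chrng was listed at 0 in the quadriceps of ground mice M03 and M08. The share of all genes with the same direction in all 3 mice was not computed, so no pattern is read from these orders.

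Sets of related genes were examined to place the 10 among their partners, and no gene of them passed the test between flight and ground in either muscle. Among 20 other myogenic regulators, 12 were tested. At an unadjusted p under 0.05, 3 were higher after flight in the gastrocnemius, which were Hdac9 (0.35 ± 0.10, adjusted p = 0.210 by limma), a class IIa deacetylase that represses MEF2, and the MEF2 factors Mef2c (0.27 ± 0.10) and Mef2a (0.21 ± 0.09). Hdac9 read 9.45 to 10.7 TPM on the ground and 12.01 to 13.8 TPM after flight there. In the quadriceps Tcf12, an E-protein that pairs with the myogenic factors, was higher (0.29 ± 0.10) and its relative Tcf3 was lower (-0.34 ± 0.14), with adjusted p-values of 0.411 and 0.459 by limma. The list's median log2 difference was 0.07 in the gastrocnemius and -0.07 in the quadriceps.

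Among 18 other genes of the neuromuscular synapse, 14 were tested, and 7 were higher and 7 lower after flight in each muscle. Utrn, which encodes utrophin under the postsynaptic membrane (0.38 ± 0.14, adjusted p = 0.279 by limma), and Lrp4, the agrin receptor (0.27 ± 0.11, adjusted p = 0.310 by limma), were higher in the gastrocnemius at an unadjusted p under 0.05. Musk, the kinase that organises the synapse with Lrp4, read 13.6, 14.1 and 12.5 TPM in the ground and 10.2, 24.9 and 17.7 TPM in the flight gastrocnemius. In the quadriceps it read 10.99, 10.6 and 9.50 TPM on the ground and 7.19, 16.7 and 18.3 TPM after flight. As for Cdkn1a, M12 and M20 were above all ground mice in both muscles, while M11 was below them. The log2 differences were 0.29 ± 0.27 and 0.31 ± 0.31 (adjusted p = 0.646 and 0.749 by limma), and 0.61 and 0.70 without M11 (adjusted p = 0.0984 and 0.238 by limma). Rapsn, the scaffold that clusters the receptor, stayed between 6.32 and 9.17 TPM in all libraries (adjusted p = 0.954 and 0.846 by limma).

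Of 18 other genes known to respond to denervation, 15 were tested, with median log2 differences after flight of -0.06 in the gastrocnemius and 0.01 in the quadriceps. At an unadjusted p under 0.05, 2 were higher in the gastrocnemius, and 2 were higher and 1 lower in the quadriceps, against 15.1% and 10.8% of all genes tested. Cdkn1c, which encodes the cell cycle inhibitor p57, was higher after flight by 0.47 ± 0.12 in the gastrocnemius and 0.59 ± 0.24 in the quadriceps (adjusted p = 0.175 and 0.445 by limma). Trim63, the ubiquitin ligase MuRF1, was higher by 0.31 ± 0.09 and 0.45 ± 0.13 (adjusted p = 0.210 and 0.347 by limma). The flight and ground libraries of both genes did not overlap in either muscle. Of all genes tested, 21.0% did not overlap in the gastrocnemius taken singly and 17.4% in the quadriceps. The share without overlap in both muscles was not computed. Ankrd1, an ankyrin repeat protein of the sarcomere and nucleus, had the opposite sign, at -0.57 ± 0.25 and -1.25 ± 0.25 (adjusted p = 0.338 and 0.274 by limma). It read 8.29, 5.99 and 5.90 TPM in the ground and 3.24, 2.25 and 1.42 TPM in the flight quadriceps. No flight library of either muscle exceeded 4.79 TPM. Ankrd1 thus passed the filter of 5 TPM only through ground libraries, where it was higher, so the filter was not independent of this difference.

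Between the muscles, 2 genes of this list were called. Actc1, the cardiac actin that is reexpressed in immature or denervated fibers, was lower in the gastrocnemius by 0.85 ± 0.19 on the ground and by 1.24 ± 0.19 after flight (0.554-fold and 0.424-fold; adjusted p = 0.0319 and 0.0104 by limma). The first of these calls was lost on the rescaled values (adjusted p = 0.0738 by limma), without a trend in the variance (0.0625) or without the mouse block (0.0707), and also without ground mouse M02 (0.146), without M03 (0.139) or without flight mouse M11 (0.0551). The second was lost without M12 (0.0540) or M20 (0.0527). Sln, which encodes sarcolipin, an inhibitor of the calcium pump, was lower by 1.77 ± 0.39 after flight (0.294-fold, adjusted p = 0.0244 by limma), at 0.339 to 0.696 TPM in the gastrocnemius and 3.51 to 5.13 TPM in the quadriceps. That call was lost when any 1 of the flight mice was left out (adjusted p = 0.0689 to 0.130 by limma). Sln passed the filter of 5 TPM only through quadriceps libraries, where it is high, so the filter was not independent of this difference. With no filter on low values the call was lost as well (adjusted p = 0.0834 by limma).

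Of 16 other targets and partners of p53, 13 were tested, of which 7 had higher and 6 lower means after flight in the gastrocnemius, and 6 higher and 7 lower in the quadriceps (median log2 differences 0.03 and 0.00). At an unadjusted p under 0.05, 3 of the 13 were lower in the gastrocnemius, 1 was lower in the quadriceps, and none was higher, against 15.1% and 10.8% of all genes tested in either direction. Phlda3, which inhibits AKT signaling, differed by -0.45 ± 0.09 in the gastrocnemius and -0.45 ± 0.15 in the quadriceps (adjusted p = 0.126 and 0.380 by limma). Its libraries read 75.8 to 79.9 TPM on the ground and 50.2 to 60.3 TPM after flight in the gastrocnemius. Ccng1, cyclin G1, differed by -0.44 ± 0.17 and -0.18 ± 0.10 (adjusted p = 0.294 and 0.543 by limma), and Zmat3, an RNA-binding protein, by -0.34 ± 0.13 and -0.31 ± 0.15 (adjusted p = 0.304 and 0.507 by limma). Zmat3 passed the filter only through ground quadriceps libraries, at up to 5.39 TPM, and did not exceed 4.27 TPM in any flight library. Ccng1 was called between the muscles after flight, where it was lower in the gastrocnemius by 0.59 ± 0.11 (0.663-fold, adjusted p = 0.0137 by limma). The call was lost on the rescaled values (adjusted p = 0.0611 by limma) and without M12 (adjusted p = 0.0805 by limma).

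**Figure D5:**
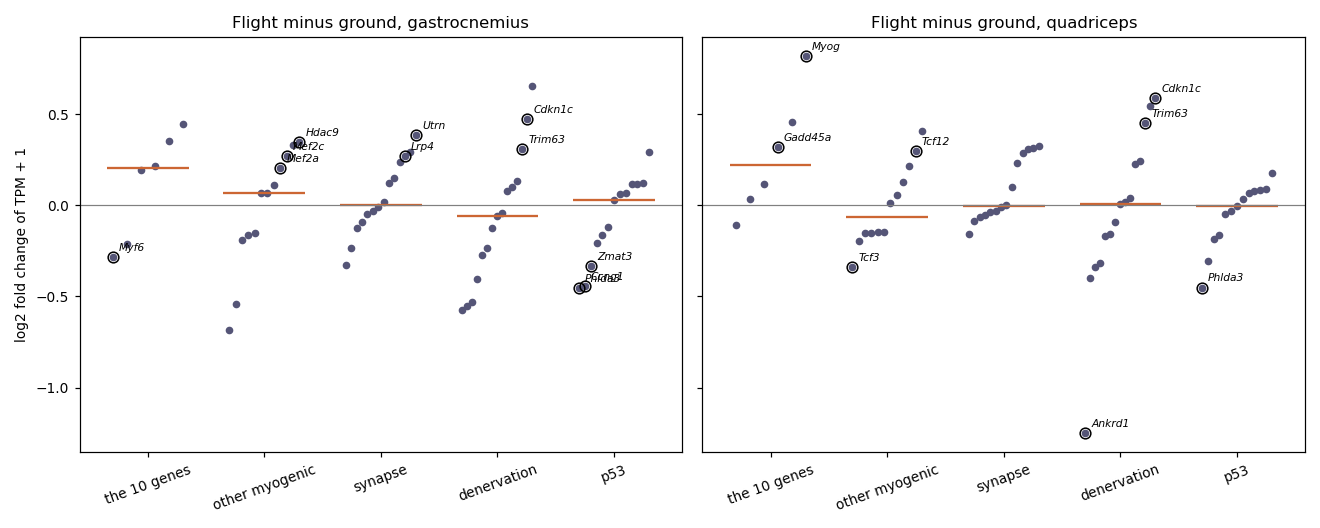
Log2 difference of TPM + 1 between flight and ground of every tested gene of the 10 and of the related lists, sorted within each list, in the gastrocnemius (left) and quadriceps (right). Orange lines are list medians, which lie between -0.07 and 0.07 for the related lists, and circled genes have an unadjusted p under 0.05, none of which passed adjustment.

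For each of the 6 tested genes, the genes with the most similar levels over the 12 libraries were listed by Pearson's r of log2(TPM + 1), as a description of libraries that share scaling, muscle and mouse. Myod1 ran most closely with Pcyt2 (r = 0.97, and 0.98 after subtracting the 4 group means), followed by Crtc3 and Iffo1. Myog ran with Ywhah (0.95 and 0.91), Ank3 and Gpt2. The heat shock cognate gene Hspa8 (0.93 and 0.89) was nearest to Myf6, with Ahsa1 and Gm5575 after it. Ncam1 had looser neighbours, led by Erich1 (0.85 and 0.86), Lbr and Tspan15. Nearest to Gadd45a was the forkhead factor gene Foxo4 (0.96 and 0.85), then Morf4l2 and Calm3. Cdkn1a ran with Art3 (0.94 and 0.97), Rev1 and Aff4.

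The deposited splicing tables, which cover skipped and mutually exclusive exons, listed 0 events in the 10 genes and 0 in the synapse, denervation and p53 lists. Of the other myogenic regulators, Mef2a, Mef2c, Mef2d and Tcf12 were listed, with 20 entries over both muscles, and these were not analysed here.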

How the data were processed

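Levels were read from 12 stranded, single-end RNA-seq libraries. The authors estimated TPM with kallisto 0.46.0 (version from the submitters' processing notes) and summed it per gene with tximport, and the deposited TPM values were used unchanged. Splicing tables, which the authors made with STAR 2.7.1a on mm10 and rMATS-turbo, were used here only to count entries per gene. DESeq2, which the authors used, needs counts and was not applied. Symbols were matched to gene identifiers for 35856 of 36008 genes. Gene positions are from GENCODE vM21 (GRCm38, the build of mm10), 1-based.

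Genes above 5 TPM in at least 1 library (10481) were tested with limma 3.58.1 in R 4.3.3 on log2(TPM + 1), by lmFit and eBayes with a trend, two-sided, with Benjamini-Hochberg adjustment over all of them. Flight was compared with ground over the 6 libraries of a muscle. Muscles, and the interaction, were compared over all 12 libraries with mouse as a block, since the titles name the same animals for both muscles; deviations from group means correlated at -0.12 to 0.33 between the muscles of a mouse. Single values were compared by exact two-sided permutation (smallest p 0.1). Scripts were tested on simulated data. The 10 genes and the 4 related lists (72 genes) were chosen with earlier results of these data known, so no test was run on a list as a whole. Of each related list, genes called in any comparison and the 3 with the smallest unadjusted p in each flight comparison were eligible to be named, besides Chrne, Chrnb1, Musk and Rapsn in any case. Alternatives were a pseudocount of 0.1, no filter on low values, rescaling, no trend, other fits and leaving out each mouse. Mice are the replicates. TPM carries no counts, so no interval for counting error is given. Promoter sequences are RefSeq's, on GRCm38.p6.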

Additional observations from a re-analysis of the deposited data

How the results depend on the processing

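None of the 10 genes was called under any alternative. Over the alternatives, 385 of 406 values of these genes were counted as unchanged. Another 20 took the other sign and 1 moved by more than the spread. For a tested gene, unchanged meant the same direction and the same side of the threshold. For the 4 genes below the filter it meant a move smaller than the spread, whatever the sign. The cause of the sign changes and of the move was not tested. The count of all genes called for flight in the gastrocnemius was 24, and it was 4 with no filter on low values, 5 without a trend, 0 with the replicate number as a block across ground and flight, and 1 to 133 when a mouse was left out, with 133 without flight mouse M11. In the quadriceps the count was 3, and it was 1 with no filter, 1 on rescaled values, 1 without a trend, 0 with the replicate block, and 1 to 4 when a mouse was left out. Same-numbered ground and flight libraries deviated from their group means with correlations of -0.18 to 0.11, so the number is only a name and does not pair them. Between the muscles the count was 335 on the ground (77 with no filter, 36 to 335 when a mouse was left out) and 350 after flight (200, and 77 to 354). With no filter, the calls of Actc1, Sln and Ccng1 between the muscles were lost (adjusted p by limma 0.127 for Actc1 on the ground, and 0.0560, 0.0834 and 0.0615 after flight). With no mouse block the counts were 272 and 320. For the interaction it was 0 (2 with no filter, 0 to 1 when a mouse was left out).

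Among the tested genes, leaving out a mouse at a time turned the sign of the log2 differences below. The genes below the filter were not checked for this. For flight in the gastrocnemius, Ncam1 ranged from -0.54 to 0.070, Tcf3 from -0.053 to 0.20, Chrnb1 from -0.11 to 0.062 and Rapsn from -0.030 to 0.069. For flight in the quadriceps, Myod1 ranged from -0.010 to 0.31, Myf6 from -0.23 to 0.036, Ncam1 from -0.25 to 0.31, Mef2c from -0.023 to 0.036, Rapsn from -0.026 to 0.20, Sln from -0.73 to 0.32 and Actc1 from -0.39 to 0.096. Between the muscles, Cdkn1a ranged from -0.13 to 0.28 on the ground and from -0.033 to 0.086 after flight, and Ncam1 after flight from -0.38 to 0.29 (0.084 on rescaled values). For the interaction, Myod1 ranged from -0.044 to 0.23, Ncam1 from -0.59 to 0.084, Gadd45a from -0.068 to 0.17 and Cdkn1a from -0.25 to 0.16. No alternative was run for splicing events, as the 10 genes and the synapse genes had no event listed.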
